A study of Homo sapiens with 6 samples.

Results

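The genes described here were 10 members of the ERBB receptor system, taken by symbol from a table of 37887 rows: the receptors EGFR, ERBB2 and ERBB3, the EGF-family ligands AREG, EREG, HBEGF, TGFA, BTC and NRG1, and the receptor inhibitor ERRFI1. The rule named genes by family and used no measured value, but the members were chosen with earlier results of these data known. The 6 other ERBB receptors and ligands were examined apart. RNA-seq was performed on MDA-MB-436, a cell line of triple-negative breast cancer (TNBC) with mutant BRCA1. All cells carried the same doxycycline-inducible MUC1 shRNA in pLKO-tet-puro. Control cells received 0.1% DMSO as vehicle and shMUC1 cells received doxycycline at 500 ng/ml, with 3 libraries in each group, and the comparison addressed which transcripts changed when the MUC1 shRNA was induced. In the titles the control libraries are named for a control shRNA. The treatment fields and the design text instead give vehicle-treated cells with the MUC1 shRNA, and this reading was used. No doxycycline-treated cells with another shRNA were analysed here, so an effect of doxycycline cannot be told apart from that of the shRNA. The length of treatment of this line is not given in the sources used here.

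ERBB receptors are tyrosine kinases at the cell surface that pair with one another when a ligand of the EGF family binds. ERBB2 has no known soluble ligand and acts as a partner, and ERBB3 has little kinase activity of its own and signals through the receptor it pairs with. The ligands are made as membrane-anchored precursors and are released by ADAM proteases. AREG, TGFA and EGF bind EGFR, whereas EREG, HBEGF and BTC bind both EGFR and ERBB4, and the neuregulins bind ERBB3 or ERBB4. Signal passes through the RAS-ERK and PI3K-AKT pathways, and ERRFI1 (MIG6) is an inhibitor that is induced by the pathway and binds the active kinase. In TNBC, EGFR is often abundant.

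AREG stood apart from the other members. It was near the detection limit in control cells and rose 13.4-fold on the fitted scale in shMUC1 cells. EGFR, its receptor, and EREG, its neighbour in the genome, both fell by less than 2-fold. Smaller falls were measured for ERBB2, NRG1 and ERRFI1, whereas ERBB3, HBEGF, TGFA and BTC did not pass the test. Thus, 1 of 10 members was higher in shMUC1 cells and 5 were lower at an adjusted p under 0.05 (edgeR quasi-likelihood test, Benjamini-Hochberg over 15355 genes). Among all genes tested, 25.2% were higher and 23.6% were lower by the same criterion, so the member counts alone do not set the family apart. With a fold change over 2 also required, 1 member (AREG) was higher and 0 were lower, beside 2.21% and 3.74% of all genes. The CPM values of the 2 groups did not overlap for 5 of 10 members, beside 54.8% of all genes tested.

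Library totals ran from 18678307 to 27825546 counts, and 3 counts corresponded to 0.109 to 0.161 counts per 1000000 counts (CPM) across libraries. CPM values were scaled by TMM, and the median log2 fold change over all tested genes was 0.000583. The targeted gene MUC1 was at 3.88 ± 0.401 CPM (SD, n = 3) in control and 2.14 ± 0.412 (SD, n = 3) in shMUC1 cells, a log2 fold change of -0.84 (SE 0.214, edgeR adjusted p = 0.00119) with no overlap between groups. The labelled cell type was checked with markers. All 5 mesenchymal markers were detected, at 1846 to 1878 summed CPM in control and 1823 to 1868 in shMUC1 libraries. These sums were mostly FN1, which rose from 962 to 1285 CPM, and VIM, which fell from 718 to 417 CPM. ZEB1, CDH2 and SPARC also fell. SPARC was low, at 1.55 CPM in control and 0.393 CPM in shMUC1 cells. In control it was below the luminal markers FOXA1, EPCAM and GATA3, at 7.48, 3.28 and 2.32 CPM. Of 8 luminal epithelial markers, 3 passed the low-count filter, and the hormone receptors ESR1 and PGR had at most 12 and 4 counts in any library.

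The promoters of AREG and EREG are shown because these adjacent genes moved in opposite directions. Each window holds 250 bases before and 50 bases after the start site, from RefSeq (GRCh38.p14), in 5′ to 3′ direction on the plus strand. The motifs searched were, on both strands, the cyclic AMP response element (TGACGTCA), the AP-1 site (TGANTCA), the E-box bound by ZEB and SNAI factors (CAGGTG) and the TEAD site (GGAATG). Capitals mark matches. AREG lies at chr4:74445134-74455009 and EREG at chr4:74365143-74388751 (GENCODE 29, GRCh38), and the windows span chr4:74444886-74445185 and chr4:74364895-74365194.
AREG: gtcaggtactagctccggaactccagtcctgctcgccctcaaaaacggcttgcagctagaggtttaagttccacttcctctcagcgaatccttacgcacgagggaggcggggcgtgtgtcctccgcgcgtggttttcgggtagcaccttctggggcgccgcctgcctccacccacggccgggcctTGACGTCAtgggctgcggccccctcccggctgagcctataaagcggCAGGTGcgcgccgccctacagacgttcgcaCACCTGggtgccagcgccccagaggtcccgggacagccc
EREG: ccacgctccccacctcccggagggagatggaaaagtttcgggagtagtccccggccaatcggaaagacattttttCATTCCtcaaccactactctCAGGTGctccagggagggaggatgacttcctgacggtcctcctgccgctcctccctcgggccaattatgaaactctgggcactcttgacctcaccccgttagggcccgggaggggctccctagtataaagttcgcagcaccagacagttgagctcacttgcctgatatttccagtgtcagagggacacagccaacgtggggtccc
The AREG window held 1 cyclic AMP response element, beginning at position -65 from the start site, and 2 E-boxes, at -19 and 12. The EREG window held an E-box at -155 and a TEAD site at -175 and no cyclic AMP response element. That element occurred in 1.85% of 35116 RefSeq windows of this kind, the AP-1 site in 7.71%, the E-box in 20.6% and the TEAD site in 14.0%. In the 16341 windows of tested genes, the shares were 2.68%, 5.52%, 18.66% and 11.55% in the same order. These motifs did not overlap one another in either window. The matches describe the letters only, and no binding was measured in these files.

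Windows were at hand for 8 of the 10 members. Other than in AREG, the cyclic AMP response element was in none of them. ERBB2, which fell, held 1 AP-1 site at -222 and no other motif in its only window, at chr17:39687844-39688143. That window lies at the upstream end of a gene with 22 annotated transcripts. Any other start sites of ERBB2 were not searched. HBEGF and BTC, which did not pass the test, each held 1 E-box. ERRFI1 held none of the motifs. EGFR had 2 windows, and the first of them, at chr7:55018767-55019066, held none, whereas the other held 2 AP-1 sites and 1 TEAD site. TGFA also had 2 windows, with an E-box in 1 of them.

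EGFR was the most abundant receptor transcript per exon length. It was at 388, 400 and 396 CPM in the 3 control libraries and at 308, 306 and 315 CPM in the 3 shMUC1 libraries. Each shMUC1 library was below each control library, and the spread within either group was small. The mean fell from 395 ± 6.21 to 310 ± 4.25 CPM (SD, n = 3), a log2 fold change of -0.35 (SE 0.0314, 95% interval -0.413 to -0.286, edgeR adjusted p = 7.43e-12). EGFR lies at chr7:55019021-55211628. An antisense gene, EGFR-AS1, shares 186 bases of its exons and had 299 counts in all 6 libraries, against 50735 for EGFR.

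ERBB2 encodes the receptor amplified in HER2-positive breast cancer. Its level was 47.3, 42.6 and 44.2 CPM in control and 39.3, 39.1 and 38.4 CPM in shMUC1 libraries. The groups did not overlap, although the gap between them was narrower than the range of the control libraries. The mean fell from 44.7 ± 2.41 to 39.0 ± 0.463 CPM (SD, n = 3), a log2 fold change of -0.20 (SE 0.0613, edgeR adjusted p = 0.0074). Without control replicate 1, which had the highest level, the log2 fold change was -0.15 and the adjusted p was 0.0676. Per exon length, ERBB2 stood at percentile 51.9 of 15166 genes in control cells. Exons of MIEN1 and PGAP3 on the other strand share 571 and 194 bases with ERBB2, at chr17:39687914-39730426, and whether counting used strand is not stated. Summed over all libraries, MIEN1 had 1308 counts and PGAP3 had 689, against 6027 for ERBB2.

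ERBB3, the kinase-impaired partner of ERBB2, was a low transcript. From its locus at chr12:56076799-56103505 it was at 4.01, 3.57 and 2.36 CPM in control and at 3.87, 4.31 and 3.44 CPM in shMUC1 libraries, from 61 to 111 counts each. The groups overlapped, and control replicate 3 was the lowest of the 6. The log2 fold change was 0.24 (SE 0.200, 95% interval -0.167 to 0.646, edgeR adjusted p = 0.341), so a rise of moderate size or a small fall both lay within the error. Without control replicate 3 it was 0.03, and without control replicate 1 it was 0.40, and neither passed.

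ERBB4, the remaining receptor, was not a member but was examined with the family. It had 50, 47 and 44 counts in control and 50, 32 and 16 counts in shMUC1 libraries, and the groups overlapped. The log2 fold change was -0.56 (SE 0.300, edgeR adjusted p = 0.124). The value depended on single libraries: it was -0.87 without shMUC1 replicate 1 (adjusted p = 0.0426, edgeR) and -0.36 without shMUC1 replicate 3 (adjusted p = 0.375, edgeR), and the other 4 omissions did not pass.

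On the scale of CPM per kb of exon, EGFR made up 86.7% ± 0.908 (SD, n = 3) of the summed level of the 4 receptors in control and 85.2% ± 0.506 (SD, n = 3) in shMUC1 cells. ERBB2 made up 11.9% ± 0.709 and 13.0% ± 0.248. The sum itself went from 36.4 ± 0.229 to 29.04 ± 0.230 CPM per kb. The order EGFR, ERBB2, ERBB3, ERBB4 was the same in both groups, and neighbours in it were separated by more than their SD.

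**Figure D1:**
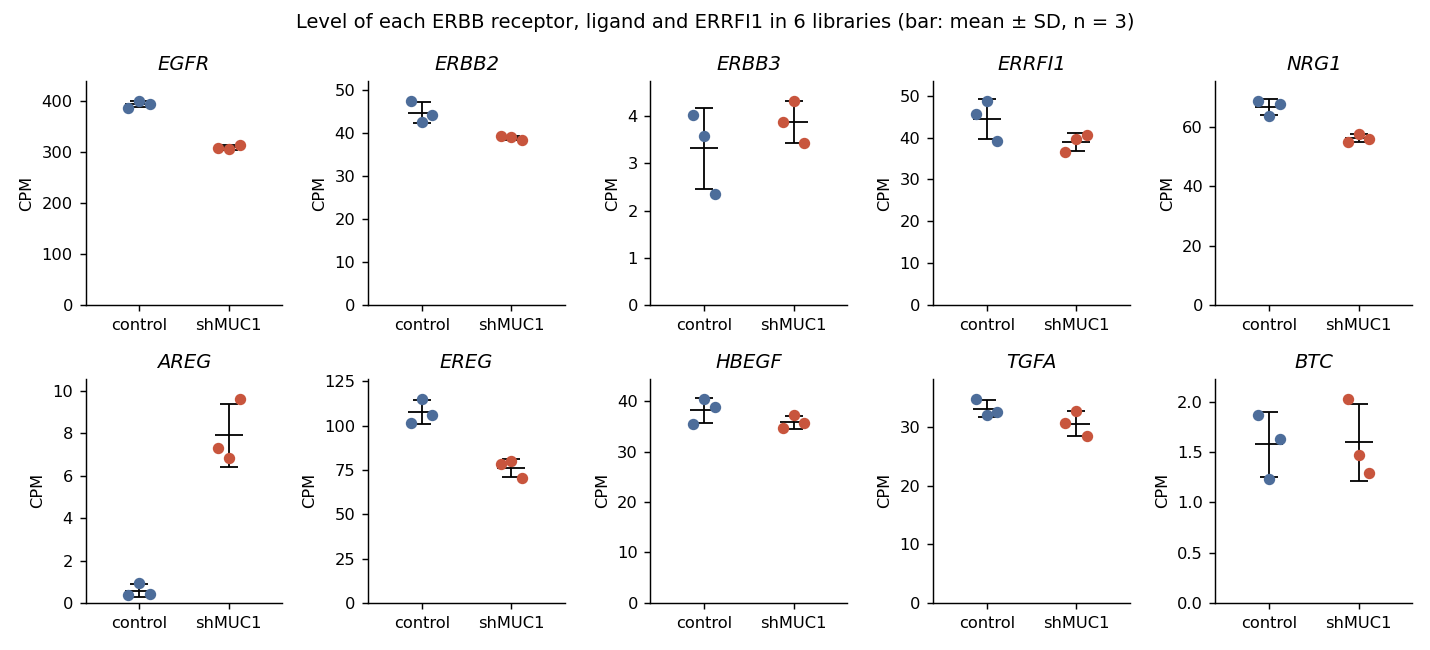
Each panel plots 1 gene, with TMM-scaled CPM on a vertical axis that starts at 0, the 3 control libraries in blue, the 3 shMUC1 libraries in red and bars for the mean ± SD. AREG is the only panel with the red points far above the blue ones, at 6.83 to 9.62 CPM, whereas EGFR, ERBB2, EREG and NRG1 have all red points under all blue points.

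AREG (amphiregulin), a ligand of EGFR that drives growth of the mammary ducts, had 8, 23 and 11 counts in the control libraries and 202, 176 and 179 counts in the shMUC1 libraries. Between 68.8% and 70.5% of values from 1 to 20 counts in a library were even, which would arise if both reads of a pair were counted, and these counts and the level of 3 counts may then stand for fewer fragments. In CPM, AREG was at 0.365, 0.944 and 0.426 against 7.31, 6.83 and 9.62. No shMUC1 library came near the highest control library. The mean went from 0.578 ± 0.318 to 7.92 ± 1.49 CPM (SD, n = 3), a log2 fold change of 3.74 (SE 0.248, 95% interval 3.24 to 4.25, edgeR adjusted p = 2.09e-15). Control cells were above the level of 3 counts but close to it, and the size of the fold depended on the control libraries. Without control replicate 2, the highest of the 3, the log2 fold change was 4.29, and without control replicate 1 it was 3.53. The call was kept with each library left out in turn. The low-count filter was set at 0.401 CPM in at least 3 libraries, which 2 control and 3 shMUC1 libraries reached, so AREG was tested because of its level in shMUC1 cells.

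In these data the rise of AREG came with a rise of the 3 luminal epithelial markers that were tested, out of 8. EPCAM, an epithelial adhesion molecule, went from 3.28 to 14.3 CPM (log2 fold change 2.12, SE 0.140, edgeR adjusted p = 1.76e-15). GATA3 and FOXA1, transcription factors of luminal cells, had log2 fold changes of 0.88 and 0.37 and also passed the test. The 8 luminal markers summed to between 12.9 and 14.5 CPM in control and between 25.7 and 31.9 CPM in shMUC1 libraries. EPCAM gave the largest part of the rise in this sum. KRT19, RAB25 and PGR had at most 4 counts in any control library and were at 0 in all shMUC1 libraries. GRHL2 was at 0 in all 6 libraries. Of the 5 mesenchymal markers, VIM, ZEB1, CDH2 and SPARC fell, with log2 fold changes of -0.78, -0.97, -0.22 and -1.97, and FN1 rose by 0.42 on the same scale. SPARC had only 48, 26 and 36 counts in control and 10, 10 and 8 counts in shMUC1 libraries. The part of these shifts in the AREG result was not tested. In bulk RNA, more cells with a transcript and more RNA per cell cannot be told apart.

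EREG (epiregulin), whose gene lies beside AREG, was the most abundant ligand per exon length. It was at 101, 115 and 106 CPM in control and at 78.2, 79.8 and 70.3 CPM in shMUC1 libraries. All shMUC1 libraries were below all control libraries. The mean fell from 107 ± 6.85 to 76.1 ± 5.12 CPM (SD, n = 3), a log2 fold change of -0.49 (SE 0.0498, edgeR adjusted p = 1.23e-10), the largest fall among the 10 members. The ratio of EREG to AREG counts, which is not corrected for length and serves only to compare libraries, was 278, 122 and 249 in control and 10.7, 11.7 and 7.30 in shMUC1 libraries. It was lower in every shMUC1 library than in any control library.

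NRG1 (neuregulin), the ligand of ERBB3 and ERBB4, comes from a large locus on chromosome 8. It was at 68.6, 63.7 and 67.9 CPM in control and at 54.9, 57.7 and 56.0 CPM in shMUC1 libraries, with no overlap. The mean fell from 66.7 ± 2.66 to 56.2 ± 1.40 CPM (SD, n = 3), a log2 fold change of -0.25 (SE 0.0519, edgeR adjusted p = 1.31e-04). Gene counts do not tell the NRG1 isoforms apart.

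HBEGF, which is also the diphtheria toxin receptor (chr5:140332843-140346631, minus strand), was at 35.5, 40.4 and 38.8 CPM in control and 34.7, 37.2 and 35.6 CPM in shMUC1 libraries. The groups overlapped. The log2 fold change of -0.09 (SE 0.0661, 95% interval -0.229 to 0.0394) did not pass the test (edgeR adjusted p = 0.247). With a trend on GC content and length removed from each library, it was -0.16 with an adjusted p of 0.0392.

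TGFA (transforming growth factor alpha), a ligand of EGFR (chr2:70447280-70554193, minus strand), was at 34.8, 32.0 and 32.6 CPM in control and 30.7, 32.7 and 28.4 CPM in shMUC1 libraries. These overlapped too, with a log2 fold change of -0.11 (SE 0.0708, 95% interval -0.254 to 0.0336, edgeR adjusted p = 0.206).

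BTC (betacellulin, chr4:74744759-74794686, minus strand) was low in both groups, at 1.87, 1.23 and 1.63 CPM in control and 2.03, 1.48 and 1.29 CPM in shMUC1 libraries. Its log2 fold change was 0.04 (SE 0.297, edgeR adjusted p = 0.927), with an interval from -0.563 to 0.643, so that a fall or a rise within these bounds was not detectable at this depth.

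ERRFI1, the inhibitor (chr1:8004404-8026308, minus strand), was at 45.6, 48.6 and 39.1 CPM in control and 36.5, 39.6 and 40.5 CPM in shMUC1 libraries. The groups overlapped, since control replicate 3 was below shMUC1 replicates 2 and 3. The mean went from 44.4 ± 4.86 to 38.9 ± 2.11 CPM (SD, n = 3). The log2 fold change of -0.19 (SE 0.0690) passed the test narrowly (edgeR adjusted p = 0.0191). It no longer passed without control replicate 1 (-0.17), without control replicate 2 (-0.12) or without shMUC1 replicate 1 (-0.15).

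**Figure D2:**
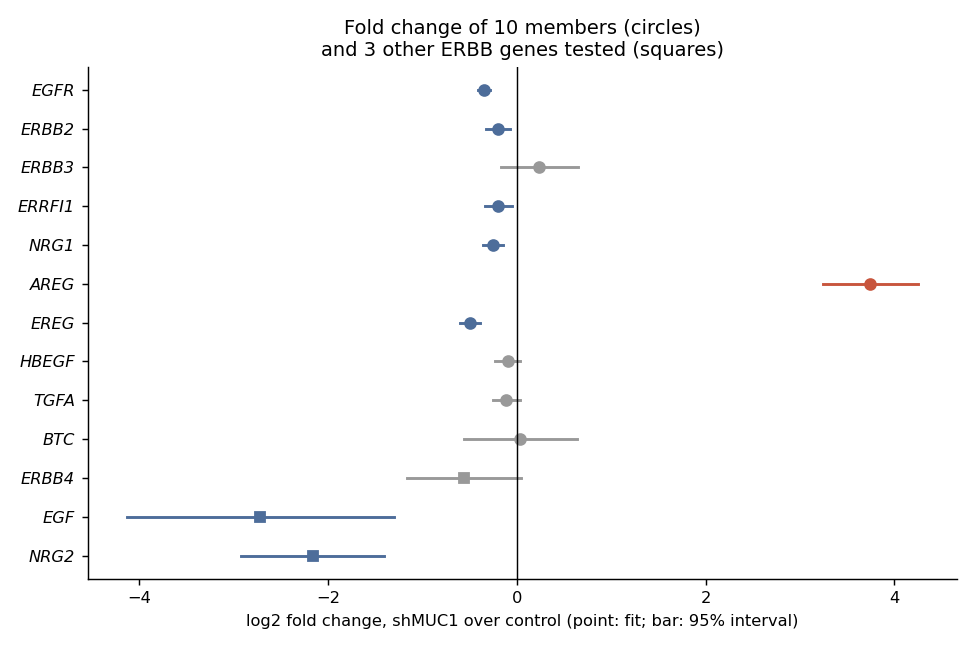
The horizontal axis gives the log2 fold change of shMUC1 over control and each bar its 95% interval, for 10 members (circles) and 3 other ERBB genes (squares), in red or blue where the adjusted p was under 0.05 and in grey otherwise. AREG lies alone on the right at 3.74, and EGF and NRG2, at -2.71 and -2.16, are the farthest to the left.

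Of the 6 ERBB receptors and ligands outside the members, 3 passed the low-count filter, and EGF and NRG2 did so only through the control libraries. EGF, the founding ligand of EGFR, had 13, 12 and 16 counts in control and 5, 1 and 0 in shMUC1 libraries. Its log2 fold change was -2.71 (SE 0.696, edgeR adjusted p = 0.00133), and the shMUC1 counts were at or near the level of 3 counts. Without shMUC1 replicate 1, which held 5 of those counts, it was -4.37, and without shMUC1 replicate 3 it was -2.29, so the size of this fall is poorly set. NRG2, a neuregulin, had 44, 51 and 52 counts in control and 18, 10 and 5 in shMUC1 libraries, with no overlap. Its log2 fold change was -2.16 (SE 0.373, edgeR adjusted p = 7.29e-06). EPGN, NRG3 and NRG4 were not tested, with at most 12, 8 and 3 counts in any library.

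Levels of different ligands were then compared per exon length. In control cells the ligands ranked EREG (18.8 ± 1.20 CPM per kb), HBEGF (12.7 ± 0.820), TGFA (6.67 ± 0.293), NRG1 (5.89 ± 0.235), BTC (0.560 ± 0.114) and AREG (0.351 ± 0.193) (SD, n = 3). On this length BTC and AREG did not differ beyond their spread, whereas with the coding length BTC (2.93 ± 0.600) was above AREG (0.701 ± 0.386). The order of the others below EREG also depended on the length used, since with the longest transcript NRG1 (11.2 CPM per kb) was above TGFA (7.68), and with the coding length TGFA (66.1) was at or above HBEGF (61.0). In shMUC1 cells AREG was at 4.81 ± 0.905 CPM per kb, which did not differ from NRG1 at 4.96 ± 0.123 beyond the spread, and EREG (13.3 ± 0.895) and HBEGF (11.9 ± 0.431) were above TGFA (6.16 ± 0.431). With the longest transcript AREG (6.39 ± 1.20) was below NRG1 (9.48 ± 0.236), and with the coding length it was farther below (9.60 ± 1.81 against 26.2 ± 0.652), where HBEGF (57.1 ± 2.07) and TGFA (61.0 ± 4.27) did not differ beyond their spread. AREG moved from percentile 11.6 to percentile 54.0 of 15166 genes with a length, and EGFR from 91.0 to 87.6.

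Expressed as a share of the summed level of 11 ligands per kb of exon, AREG went from 0.760% ± 0.394 to 11.5% ± 2.36 and EREG from 41.1% ± 1.32 to 31.8% ± 1.69 (SD, n = 3). The shares of HBEGF (27.7% and 28.4%) and TGFA (14.6% and 14.7%) overlapped between the groups. The summed ligand level was 45.7 ± 1.44 in control and 41.9 ± 0.874 CPM per kb in shMUC1 cells. The share depends on the length used. With the coding length in place of all exons, AREG went from 0.185% to 3.15% and EREG from 56.2% to 48.6%, and the shares of HBEGF (16.3% ± 0.591 to 18.7% ± 0.771) and TGFA (17.7% ± 1.33 to 19.9% ± 0.489) then did not overlap between the groups.

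**Figure D3:**
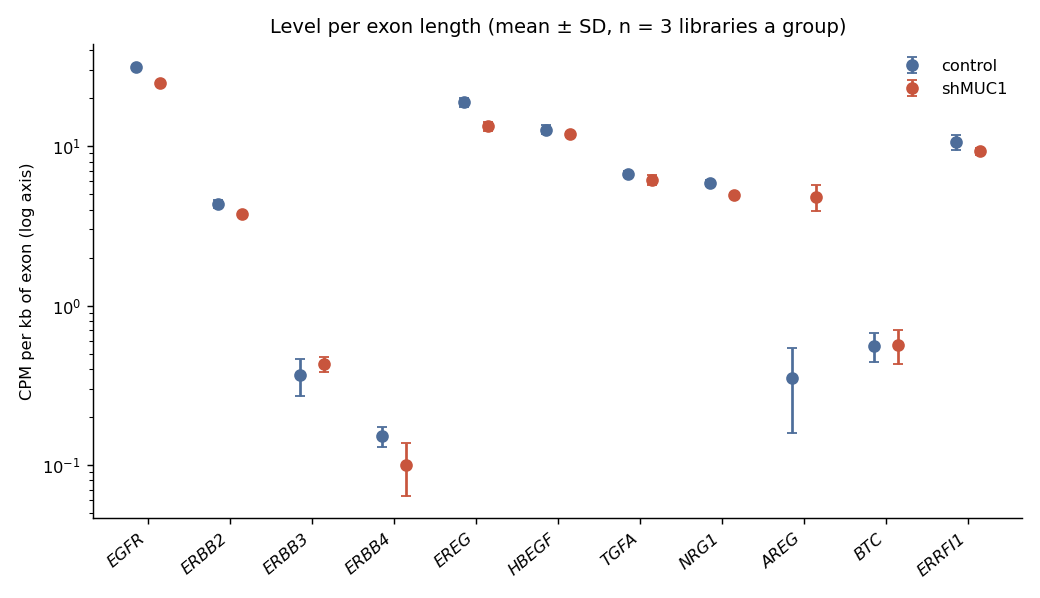
The vertical axis gives CPM per kb of exon on a log scale for 4 receptors, 6 ligands and ERRFI1, with points for the mean and bars for the SD of 3 libraries. On this length AREG moves from near the level of BTC in control (blue) to that of NRG1 in shMUC1 cells (red), whereas the other genes keep their level to within 2-fold.

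AREG, EREG, EPGN and BTC lie in a ligand cluster on chromosome 4. The genes whose start lies within 1000 kb of the AREG start were therefore listed, a choice made after the values were seen. Beside AREG, 9 genes in this window were tested and 6 passed, of which 3 were higher and 3 lower, against 25.2% higher and 23.6% lower among all genes tested. EREG, at -80.0 kb from AREG, fell, and BTC, at 350 kb on the other side, did not pass. MTHFD2L, a mitochondrial folate enzyme, rose from 30.5 to 38.8 CPM (log2 fold change 0.35), and PARM1, at 488 kb, rose from 22.8 to 29.6 CPM (0.37). The long noncoding gene LINC02562 rose by 0.71 on the log2 scale. The chemokine genes CXCL8 and CXCL1 fell, with log2 fold changes of -1.39 and -1.50, and CXCL2 and CXCL3 did not pass. Genes on both sides of AREG thus moved by far less than AREG. CXCL8, CXCL1 and EREG, which fell, and MTHFD2L, which rose, start at lower coordinates than AREG. PARM1 and LINC02562, which rose, start at higher coordinates. CXCL1 and LINC02562 were low, with means of 21.5 and 41.8 counts.

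**Figure D4:**
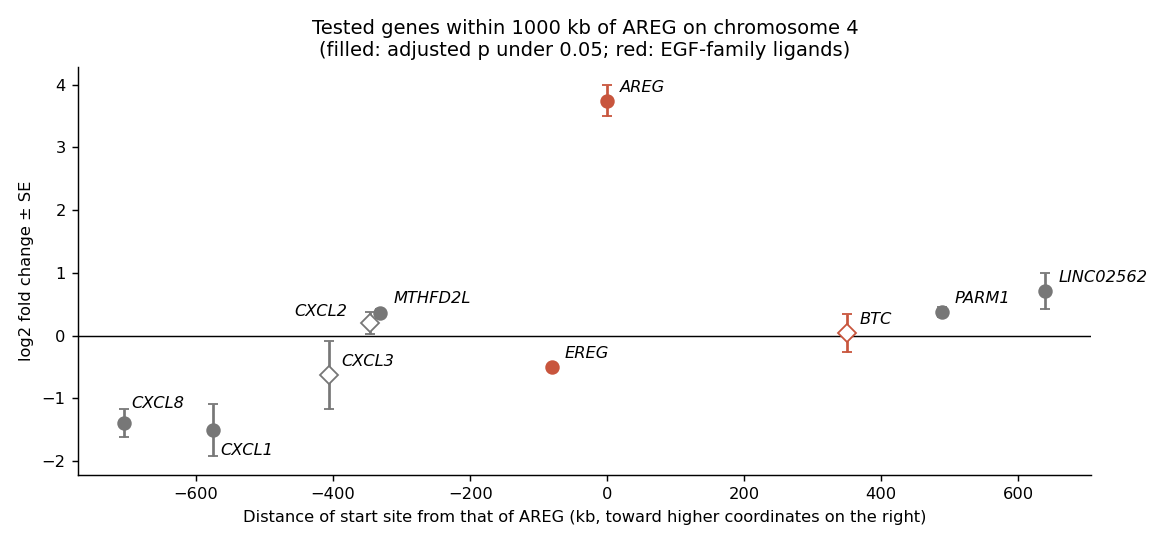
Each tested gene is placed by the distance of its start site from that of AREG in kb and by its log2 fold change ± SE, with filled symbols where the adjusted p was under 0.05 and the EGF-family ligands in red. AREG at 3.74 has no neighbour above 0.71 in the window.

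The genes around the receptors were then counted by role. The shares over all tested genes, 25.2% higher and 23.6% lower, apply to each of the 4 lists. Among 14 genes of ligand release, 1 was higher and 3 were lower, with a median log2 fold change of -0.06 against 0.000583 over all tested genes. ADAM17, the main protease for AREG release, was at 85.6 ± 0.367 and 82.1 ± 1.06 CPM (SD, n = 3; log2 fold change -0.06, edgeR adjusted p = 0.269). ADAM10, which cleaves BTC and EGF, was at 179 ± 7.12 and 184 ± 5.05 CPM (adjusted p = 0.394). The 3 that fell were ADAM9, ADAM12 and ADAM15, with log2 fold changes of -0.27, -0.26 and -0.12. The rise of TIMP3, an inhibitor of ADAM17, was 0.11 on the log2 scale with an adjusted p of 0.0477 (edgeR) and did not pass in 12 of 15 alternatives. The fall of ADAM15 did not pass in 7 of 15.

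Receptor down-regulation genes gave 8 higher and 6 lower of 17 tested, beside 25.2% and 23.6% of all genes, with a median of 0.03. LRIG1, a membrane protein that restrains ERBB receptors, was at 34.7, 36.7 and 34.0 CPM in control and 10.2, 11.2 and 8.98 CPM in shMUC1 libraries. It fell from 35.1 ± 1.44 to 10.1 ± 1.12 CPM (SD, n = 3), a log2 fold change of -1.78 (SE 0.0880, edgeR adjusted p = 4.34e-19), and was the only gene of the list to change by over 2-fold. Exons of SLC25A26 on the other strand share 907 bases with it, 12.9% of the exon length of LRIG1. Summed over all libraries, SLC25A26 had 1951 counts, against 3271 for LRIG1. The tyrosine phosphatases PTPN1 and PTPN2 rose by 0.46 and 0.36 on the log2 scale, and the ubiquitin ligase RNF41, which acts on ERBB3, by 0.34. The receptor phosphatase PTPRJ and SOCS4 fell, with log2 fold changes of -0.40 and -0.33. CBL, the ubiquitin ligase of EGFR, fell by 0.13 on the log2 scale and its relative CBLB rose by 0.31, both past the test.

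The list of adaptors, RAS-ERK and PI3K genes gave 9 higher and 8 lower of 29 tested, near the 25.2% and 23.6% of all genes, with a median of 0.01. The largest log2 fold changes above 0 past the test were in GAB1 (0.43), a docking protein of EGFR, BRAF (0.33) and the adaptor NCK1 (0.31). PLCG1, a phospholipase that binds the active receptor, fell from 94.3 ± 2.81 to 53.9 ± 1.30 CPM (SD, n = 3), with a log2 fold change of -0.81. The PI3K regulatory subunit PIK3R3 and the adaptor SHC1 fell as well, with log2 fold changes of -0.81 and -0.48. No gene of this list changed by over 2-fold.

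Genes that ERK signaling commonly induces gave 1 higher and 4 lower of 10, beside 25.2% and 23.6% of all genes, with a median of -0.15. PHLDA1 fell from 110 ± 2.34 to 66.3 ± 2.82 CPM (SD, n = 3), a log2 fold change of -0.74 (SE 0.0455, edgeR adjusted p = 2.91e-16). EPHA4 and CCND1, which encodes cyclin D1, had log2 fold changes of -0.65 and -0.30. The fall of ETV5 was slight, with a log2 fold change of -0.11 (edgeR adjusted p = 0.0285). DUSP4, an ERK phosphatase, rose by 0.26 on the log2 scale. SPRY2, SPRY4, DUSP6, EPHA2 and ETV4 did not pass. The summed level of the list was between 1056 and 1098 CPM in control and between 923 and 934 CPM in shMUC1 libraries. RNA levels do not measure the activity of the pathway, and no phosphorylation was measured in these files.

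**Figure D5:**
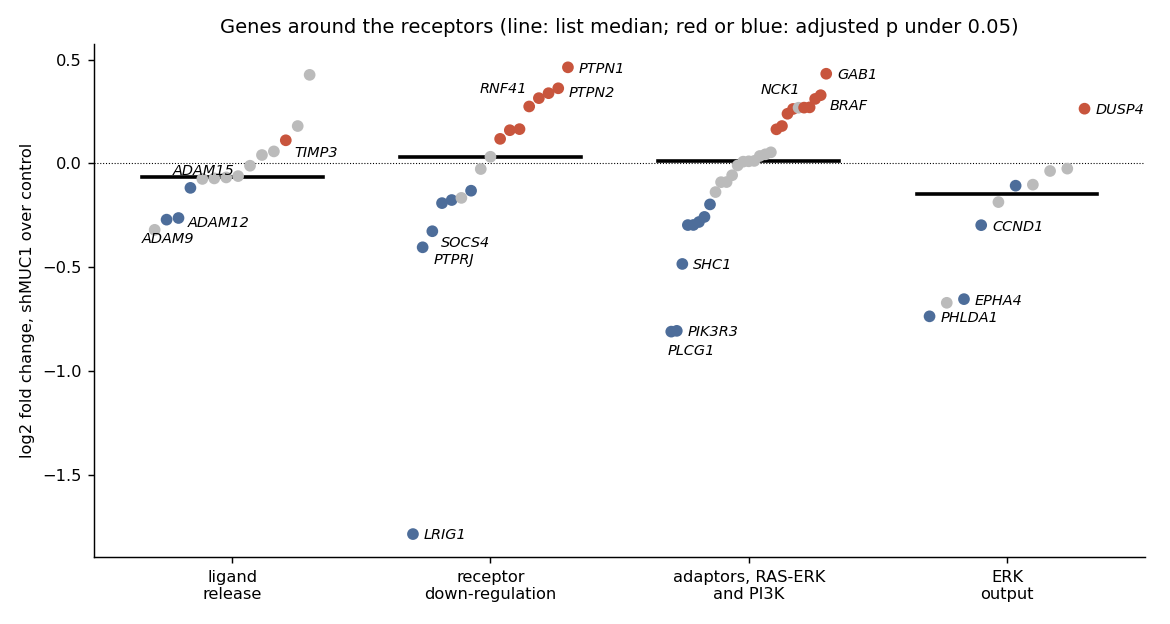
Each point is a tested gene of 1 of 4 lists placed by its log2 fold change, in red or blue where the adjusted p was under 0.05, with a line at the list median and names for the genes chosen by rule. The medians lie between -0.15 and 0.03, and LRIG1 at -1.78 is far from the rest.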

How the data were processed

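RNA was isolated with Trizol from MDA-MB-436 cells cultured in triplicate, and libraries were made with a stranded mRNA kit. The deposited table of the authors holds unnormalized counts by gene symbol in 1 column per library. Per the submitters' processing notes, CASAVA 1.8.2, STAR 2.7.9a, featureCounts, DESeq2 1.24.0 and GRCh38.p7 were used, and the strand and read-pair settings of counting are not given in the sources used here. Between 68.8% and 70.5% of values from 1 to 20 counts were even in each library. If both mates of a pair were counted, printed counts and floors stand for fewer fragments, and halved counts were therefore tried. Totals were 18678307 to 27825546 counts, and floors (3 counts) cover counting error only. P-values measure the spread between these samples, which may be technical.

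Counts were tested with edgeR 4.0.16 (quasi-likelihood, TMM, filterByExpr, two-sided, group as the only term) in R 4.3.3, with Benjamini-Hochberg adjustment over 15355 genes. The scripts were tested on simulated data. Alternatives were DESeq2 1.42.0, limma-voom (limma 3.58.1), other scalings, other filters, a replicate block, halved counts and leaving out each library. Symbols were matched to GENCODE 29 (37186 of 37887 rows, 98.1%) for lengths and positions, and 14 names had become dates. Within groups, library pairs differed with a chi-square of 2.79 to 5.55 per degree of freedom, so none was counted as a duplicate.

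Members and lists were chosen with earlier results of these data known. The named genes were all ERBB receptors and ligands and MUC1, and from each other list the 3 largest rises and 3 largest falls past the test with a mean of at least 100 counts. The cell type markers were named as a list. ADAM10, ADAM17, CBL, CBLB, ETV5, the ERK-induced genes that did not pass and the genes near AREG were named after their values were seen.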

Additional observations from a re-analysis of the deposited data

How the results depend on the processing

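The log2 fold changes of AREG (3.53 to 4.29), EREG (-0.53 to -0.44), EGFR (-0.37 to -0.29) and NRG1 (-0.28 to -0.23) passed the threshold with an unchanged sign in all 15 alternatives, 1 of which (GC content and length trend removed) was chosen after seeing the data. With each library left out, members called lower ranged from 3 to 5, ERBB2 ran from -0.23 to -0.15, ERRFI1 from -0.29 to -0.12, ERBB3 from 0.03 to 0.40, EGF from -4.37 to -2.29 and BTC from -0.17 to 0.18, with the sign of BTC turned to -0.11 without control replicate 2 and to -0.17 without shMUC1 replicate 1. HBEGF passed only with the GC and length trend removed (-0.16). With a mean of at least 50 counts required, 177 genes were higher and 275 lower with a fold over 2, of 12212 tested. In the main run these were 339 and 575, of 15355 tested. Of the other ERBB genes, 0 were lower with that filter and 1 with halved counts, against 2. Ligand release genes called higher (1) were 0 under DESeq2 size factors, library totals only, the mean of 50 counts, DESeq2, limma-voom, the replicate block and halved counts, 2 with the GC and length trend removed, and 0 to 1 with each library left out. The cause was not tested where none is given. With library totals only, 47.6% of called genes were higher, against 51.7%.

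Samples with the same replicate number did not deviate together (correlations of 0.0167, -0.0311 and -0.0359), so the numbers were not taken to pair the samples. With the replicate block, 3885 genes were higher and 3591 lower, against 3866 and 3617, and the calls of the 10 members were as without it. At this depth, genes with a mean under 50 counts (BTC, ERBB4, EGF, NRG2, EPGN, NRG3, NRG4) gave wide intervals or no test.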

Other observations

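The 7-base word ATCAGTA was searched in annotated 3′ UTRs (GENCODE 29), because it occurs in the 3′ UTR (731 bases) annotated for a MUC1 transcript. In other MUC1 transcripts its place, in the 3′ UTR or the coding sequence, was not examined. It was in 11.6% of 13023 tested genes with an annotated 3′ UTR and in 2 of the 10 members, TGFA and NRG1. The other 8 did not hold it. Among tested genes with a 3′ UTR of similar length, 21.4% (for TGFA) and 21.2% (for NRG1) held the word. Whether the word bears on any fold change was not tested here.

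Over the members, the summed level was between 727 and 748 CPM in control and between 596 and 605 CPM in shMUC1 libraries. EGFR was the largest part of this sum, at 395 CPM in control and 310 CPM in shMUC1 cells. The sum mixes receptors, ligands and ERRFI1 and is not corrected for length.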
